A study of Equus caballus with 28 samples.

Results

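The 5 mature miRNAs of the equine miR-302/miR-367 cluster, eca-miR-302a, eca-miR-302b, eca-miR-302c, eca-miR-302d and eca-miR-367, were followed through small RNA libraries of the mare and her conceptus at day 13 after ovulation. They were taken by name, without regard to their level, from a table of 690 known miRNAs, or 844 with the 154 predicted ones included. The 28 libraries comprised 5 embryos, 5 yolk sac (YS) fluids, 5 endometrial biopsies and 5 uterine fluids (UF) of pregnant mares, and 4 endometrial biopsies and 4 UF of cyclic mares. Warmblood mares served as their own controls: in the pregnant cycle they were inseminated and found to carry an embryo, while in the cyclic control cycle they were not bred, and hCG was given in both. The study's methods describe the use of a single stallion, so the embryos shared a sire. Each embryo and YS fluid number was taken to stand for 1 conceptus. The labels call the fluid samples yolk sac, and the methods describe fluid drawn from the vesicle with a needle. The embryonic tissue was stored without its capsule, the UF was absorbed with a tampon before the embryo was flushed out, and the biopsy was taken last. Ages of the mares are not given in the sources used here.

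The miR-302/miR-367 cluster is a group of hairpins transcribed together and is best known from embryonic stem cells, where it is abundant in the pluripotent state and falls as cells differentiate. The miR-302 members are near copies of one another and share a seed, the short stretch at the start of a miRNA that pairs with target messages. They act on regulators of the cell cycle and of cell fate. The miRNA miR-367 has a different seed, that of the miR-25 and miR-92 family, although it comes from the same primary transcript. In a horse RefSeq annotation of another genome build, used here for gene order only, all 5 members were matched. They lay in the order miR-302b, miR-302c, miR-302a, miR-302d and miR-367, within the span of the protein-coding gene LARP7 and with no other miRNA gene between them. Because the miR-302 members differ at few positions, reads could be exchanged among them during counting, and how reads with several matches were treated is not given in the sources used here.

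The libraries differed in depth. The total miRNA count ranged from 28204 to 44768 in embryos, from 4352 to 14531 in YS fluid, from 280065 to 590593 in pregnant endometrium, from 61836 to 371630 in cyclic endometrium, from 79173 to 152860 in pregnant UF and from 62087 to 226308 in cyclic UF. Levels are therefore given as reads per 1000000 (CPM) of a library's total miRNA count, and 1 read in the shallowest YS fluid, that of conceptus 4, was worth 230 CPM. The labels of the tissues were compared with miRNAs typical of other cell types. The smooth muscle and stroma list (7 miRNAs) summed to 246 to 1135 CPM in embryos, where miR-199a-5p and miR-214 had no read, against 17516 to 56910 CPM in pregnant endometrium. The blood list (7 miRNAs) summed to 112 to 314 CPM in embryos and to 3601 to 12051 CPM in pregnant endometrium. The 6 epithelial miRNAs were present in every group, with 93710 to 131812 CPM in embryos. In embryo 1, predicted miRNAs took 36.3% of the reads, compared with 5.02% to 8.67% in the other embryos.

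The cluster was abundant in the conceptus and close to absent on the maternal side. Its members took 5865 of 233437 reads in the conceptus libraries and had a read in 10 of 10 of them. In the 18 maternal libraries they took 9 of 4080346 reads, and 13 of these libraries had none. Of these 9 reads, 4 were in 1 cyclic UF, that of mare 2. In embryos the 5 members together reached 19910 ± 8753 CPM (SD, n = 5), or 1.99% of all miRNA reads. In YS fluid the sum was 36565 ± 17637 CPM (SD, n = 5), or 3.66% of the reads. Over the pooled libraries of each maternal group, the sum was 1.09 CPM in pregnant endometrium (95% exact Poisson interval 0.132 to 3.93), 3.51 CPM in pregnant UF (0.425 to 12.7) and 7.60 CPM in cyclic UF (2.47 to 17.7). Cyclic endometrium had 0 of 1012903 reads, which allows a level of up to 2.96 CPM when 3 reads are taken as the limit. These intervals and limits cover counting error only. In such bulk samples, fewer cells that carry a miRNA and less of it per cell cannot be told apart.

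**Figure D1:**
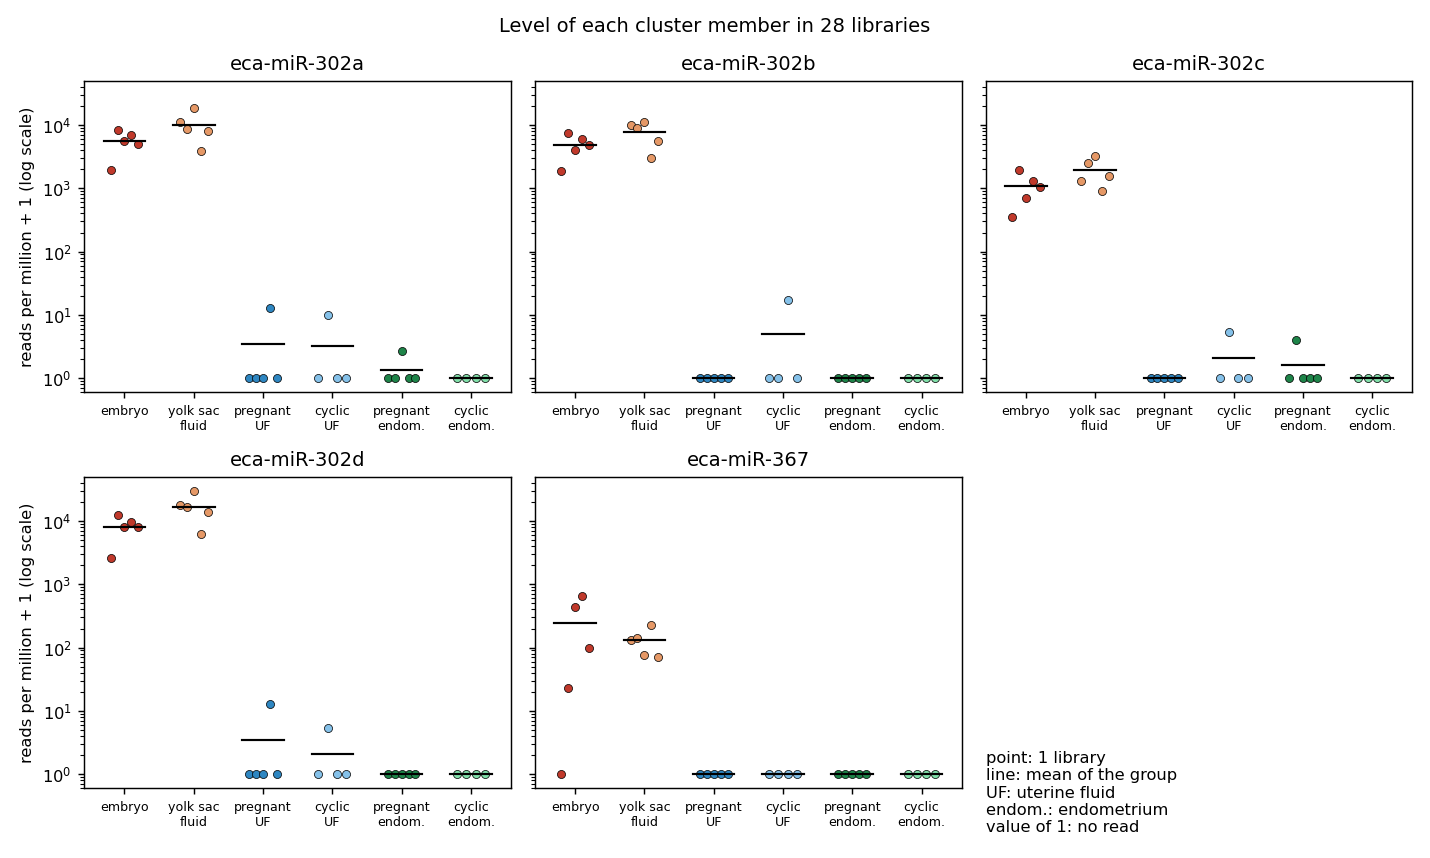
Level of each of the 5 members in 28 libraries, as CPM + 1 on a log axis, by group; each point is 1 library, the line is the group mean, and a value of 1 means no read. For the miR-302 members every embryo and YS fluid lies above every maternal library, while eca-miR-367 has no read in 1 embryo and in all 18 maternal libraries.

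eca-miR-302d was the most abundant member. In embryos 1 to 5 it had 74, 562, 291, 277 and 328 reads, or 2624, 12554, 8038, 9595 and 7922 CPM. Embryo 1 was the lowest and embryo 2 the highest, with a 4.78-fold span. In YS fluids 1 to 5 it had 134, 238, 387, 27 and 201 reads, or 17666, 16465, 29619, 6204 and 13832 CPM. The YS fluid of conceptus 4 was the lowest and that of conceptus 3 the highest, and the ranges of the 2 groups overlapped. It ranked between 16 and 35 among the known miRNAs of an embryo and between 9 and 25 among those of a YS fluid. On the maternal side it had 1 read in pregnant UF, 1 in cyclic UF and none in either endometrium.

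eca-miR-302a came next. Embryos 1 to 5 had 1950, 8354, 5663, 6962 and 4951 CPM, from 55 to 374 reads, with a mean of 5576 ± 2408 CPM (SD, n = 5). The YS fluids had 85, 124, 240, 17 and 115 reads, with a mean of 9995 ± 5362 CPM (SD, n = 5). Again embryo 1 and YS fluid 4 were the lowest of their groups and the groups overlapped. It had 1 read in pregnant endometrium, 1 in pregnant UF and 2 in cyclic UF.

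eca-miR-302b followed closely, with 53, 339, 148, 174 and 198 reads in embryos 1 to 5 (4870 ± 2133 CPM, SD, n = 5). The YS fluids had 76, 131, 146, 13 and 81 reads (7764 ± 3392 CPM, SD, n = 5). The mean levels of eca-miR-302a and eca-miR-302b differed by less than the spread between libraries in both groups. Within a library, however, eca-miR-302a had more reads than eca-miR-302b in 9 of 10 conceptus libraries. The only maternal read of eca-miR-302b was in a cyclic UF.

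eca-miR-302c was the least abundant of the miR-302 members, with 10, 87, 25, 38 and 44 reads in embryos 1 to 5. Its mean was 1073 ± 608 CPM (SD, n = 5). In the YS fluids it had 10, 36, 43, 4 and 23 reads, with a mean of 1920 ± 959 CPM (SD, n = 5). It had 1 read in pregnant endometrium and 1 in cyclic UF.

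eca-miR-367, the member with the other seed, was the scarcest and the most uneven. In embryos 1 to 5 it had 0, 1, 16, 19 and 4 reads, or 0, 22.3, 442, 658 and 96.6 CPM. Embryos 3 and 4 held 35 of its 40 embryonic reads, although embryo 2 had the most reads of the other members. In the YS fluids it had 1, 2, 1, 1 and 1 reads, with a mean of 129 ± 64.5 CPM (SD, n = 5), so that each value rested on 1 or 2 reads. No maternal library had a read of it. Over the embryos its coefficient of variation was 120%, compared with 43.2% to 56.6% for the miR-302 members.

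The make-up of the cluster reads was described next, since a share within the cluster does not depend on how the libraries are scaled. The order eca-miR-302d, eca-miR-302a, eca-miR-302b, eca-miR-302c, eca-miR-367 held in 9 of 10 conceptus libraries, and the exception was the YS fluid of conceptus 2, where eca-miR-302b (131 reads) was over eca-miR-302a (124 reads). eca-miR-302d led in 10 of 10. Its share of the cluster reads was 40.7% ± 1.79 (SD, n = 5) in embryos and 45.5% ± 1.98 (SD, n = 5) in YS fluid. It was the 1 member of 5 whose shares did not overlap between the groups, with 38.5% to 42.5% in embryos and 43.5% to 47.7% in YS fluids. The 5 shares of a library are parts of 1 total, so this is not a count over 5 independent members. No background rate was estimated for it, and no test was made of a share over the members. The lowest YS fluid share, that of conceptus 4, rested on 27 of 62 cluster reads. Its 95% exact binomial interval, 31.0% to 56.7%, covers counting error only and took in the whole range of the embryos. The shares of eca-miR-302a were 28.1% ± 1.35 and 27.0% ± 2.23 (SD, n = 5 each), those of eca-miR-302b 24.8% ± 2.15 and 21.5% ± 3.15, and those of eca-miR-302c 5.25% ± 1.00 and 5.45% ± 1.38, in embryos and YS fluid respectively. These 3 overlapped between the groups.

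**Figure D2:**
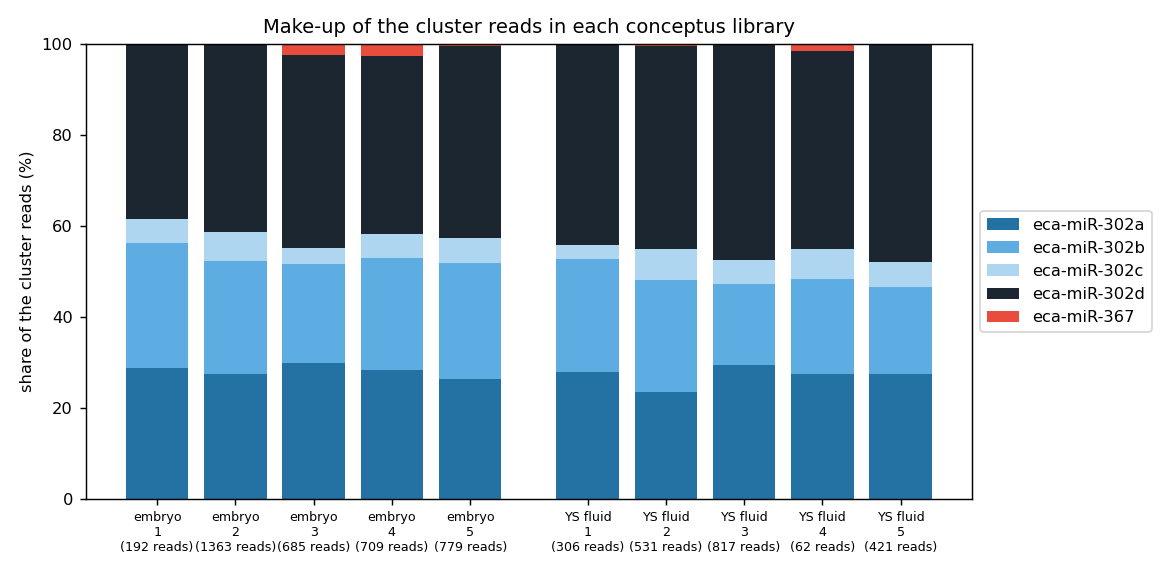
Share of each member in the summed reads of the 5 members, in percent, for the 5 embryos and 5 YS fluids, with the number of cluster reads under each bar. eca-miR-302d takes the largest share in 10 of 10 libraries, from 38.5% to 47.7%, and eca-miR-367 the smallest.

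The share of eca-miR-367 in the cluster reads ranged from 0% to 2.68% over the embryos, with intervals that cover counting error only and were not set against a spread between repeat libraries. It was 2.34% in embryo 3 (95% exact Clopper-Pearson interval 1.34 to 3.77) and 2.68% in embryo 4 (1.62 to 4.15). In embryo 2 it was 0.0734% (0.00186 to 0.408), from the deepest cluster count of all libraries, 1363 reads. In embryo 5 it was 0.513% (0.140 to 1.31). The intervals of embryos 3 and 4 lay above those of embryos 2 and 5. Embryo 1 had 0 of 192 cluster reads, with an upper bound of 1.90%, which did not separate it from any other embryo. In YS fluid the share was 0.535% ± 0.610 (SD, n = 5) and the intervals of the 5 libraries overlapped one another. Without conceptus 4 it was 0.266% ± 0.112 (SD, n = 4). The share of every YS fluid rested on 1 or 2 reads of eca-miR-367, so it depended largely on the number of cluster reads.

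**Figure D3:**
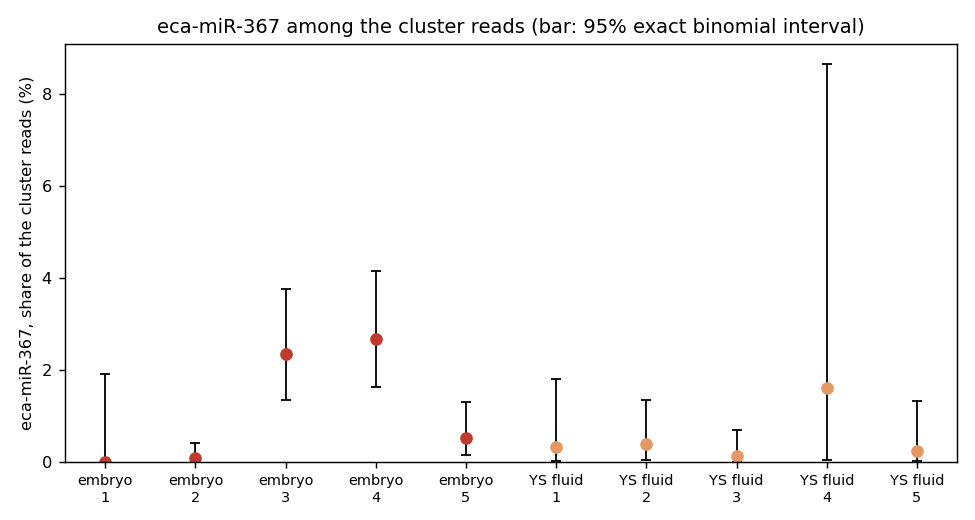
Share of eca-miR-367 in the cluster reads, in percent, for each embryo and YS fluid; the bars are 95% exact binomial intervals and cover counting error only. Embryos 3 and 4 lie at 2.34% and 2.68%, above the interval of embryo 2, and the YS fluid of conceptus 4 has the widest interval because it holds 62 cluster reads.

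Embryos were compared with the endometrium of the same pregnant mares by edgeR's quasi-likelihood test, run over all known and predicted miRNAs that reached 1 CPM in at least 5 libraries. A call needed an adjusted p (FDR, Benjamini-Hochberg over all miRNAs tested) no higher than 0.05 together with a change of 2-fold or more. Of the 5 members, the 4 miR-302 members were tested and called higher in the embryo. They passed the filter through the 5 embryos, since 0 or 1 endometrial library held a read of each, so a member that was tested had to differ and the count of 4 is no support for a difference. The reads and folds of each member are the description. Over all 359 miRNAs tested, 28.7% were called higher in the embryo and 42.6% lower (103 and 153 miRNAs). This background depended on the scaling between libraries: with library totals in place of TMM (trimmed mean of M-values) 140 were called higher and 94 lower, and the median log2 fold change of all miRNAs tested moved from −1.02 to 0.30, while the same 4 members were called higher. For eca-miR-302d, 1532 embryonic reads faced 0 reads in pregnant endometrium. It was at least 4979-fold higher when the lower end of the exact Poisson interval of the embryonic reads is set against 3 endometrial reads. Such bounds use pooled library totals and cover counting error only, without TMM or the spread between libraries. The fitted log2 fold change was 12.52 (95% interval 10.74 to 14.30, FDR = 3.23e-06, edgeR), and this interval reached below the bound. eca-miR-302b had 912 reads against 0, at least 2919-fold higher by the same bound (FDR = 3.86e-06, edgeR). eca-miR-302a, with 1040 reads against 1, had a ratio of pooled CPM of 10667 (95% exact interval 1910 to 421742, FDR = 3.03e-07, edgeR). eca-miR-302c, with 204 reads against 1, had a ratio of 2092 (371.4 to 83048, FDR = 5.87e-06, edgeR). The width of these intervals comes from the single maternal read.

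eca-miR-367 did not reach the filter in that comparison, since embryo 1 had none of it, and was tested alone. Its 40 embryonic reads against 0 in pregnant endometrium made it at least 97.7-fold higher by the same bound. The difference of the means, 244 CPM against 0, gave p = 0.0476 in a two-sided exact permutation test over libraries, where 0.00794 is the smallest p that 5 against 5 allows. With every endometrial value at 0, this p depends only on the number of embryos with a read, 4 of 5, and not on their level. Without embryo 2, 3, 4 or 5 and the matching mare the exact p was 0.143, and without embryo 1 it was 0.0286. The difference itself fell to 140 CPM without embryo 4 and was 148 CPM with TMM over the 28 libraries.

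The UF is the medium that lies between the endometrium and the embryo, and embryos were compared with it in the same way. The 4 miR-302 members were again tested and called higher in the embryo, a count that the filter fixed in the same way, where 29.7% of 310 miRNAs were called higher and 38.7% lower (92 and 120, or 146 and 85 with library totals). By the same bound of counting error, eca-miR-302b was at least 903-fold higher (FDR = 1.49e-05, edgeR) and eca-miR-302c at least 187-fold higher (FDR = 0.00016, edgeR). eca-miR-302a and eca-miR-302d, with 1 read each in pregnant UF, had ratios of 3299 (591 to 130431, FDR = 3.36e-06, edgeR) and 4860 (871 to 192076, FDR = 1.75e-06, edgeR). eca-miR-367 was at least 30.2-fold higher, and with 0 reads in the UF its exact permutation p was 0.0476 (two-sided), or 0.143 without embryo 2, 3, 4 or 5.

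All 5 members were tested between YS fluid and pregnant endometrium and 5 were called higher in YS fluid. They passed the filter through the 5 YS fluids, where 1 read already exceeded 1 CPM, so this count too is no support for a difference. Over all 341 miRNAs tested, 17.9% were called higher in YS fluid and 35.2% lower (61 and 120, or 119 and 59 with library totals, where the median moved from −0.84 to 1.16). By the bound of counting error, eca-miR-302d was at least 10528-fold higher and eca-miR-302b at least 4620-fold higher. The fits with TMM put both below these bounds. Their log2 fold changes were 12.69 (11.03 to 14.35) for eca-miR-302d and 11.58 (10.02 to 13.13) for eca-miR-302b (FDR = 1.42e-07 each, edgeR). The ratio of pooled CPM, without TMM, was 19808 (3541 to 783697) for eca-miR-302a and 3955 (696 to 157534) for eca-miR-302c. Their fitted log2 fold changes with TMM were 11.05 (9.59 to 12.51) and 8.70 (7.16 to 10.24). Both fitted values lay below the lower ends of the ratio intervals, which cover counting error only. eca-miR-367, with 6 reads against 0, was at least 25.02-fold higher by the bound of counting error. Its fitted log2 fold change was 5.52 (3.64 to 7.40), from 1 or 2 reads in each YS fluid. The call of eca-miR-367 is no support for a difference, since the YS fluids alone carried it past the filter.

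Against pregnant UF, 5 of 5 members were called higher in YS fluid, again with the YS fluids alone carrying them past the filter, beside 23.5% of 277 miRNAs called higher and 35.7% lower (65 and 99, or 114 and 53 with library totals). By the bound of counting error, the members without a read in pregnant UF were at least 1429-fold higher (eca-miR-302b), at least 337-fold higher (eca-miR-302c) and at least 7.74-fold higher (eca-miR-367, FDR = 0.000839, edgeR). eca-miR-302d had a ratio of pooled CPM of 10407 (1863 to 411451) and eca-miR-302a one of 6126 (1095 to 242371). Their fitted log2 fold changes with TMM were 10.5 (8.84 to 12.2) and 9.76 (8.09 to 11.4). Both fitted values lay below the lower ends of the ratio intervals, since the ratios use library totals without TMM. Fluids and tissues were extracted with different kits, so in each comparison of a fluid with a tissue the kit and the sample type cannot be told apart. The 2 conceptus groups were compared with the same maternal libraries, so these results share their control samples.

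Embryo and YS fluid were then set side by side within each conceptus. By CPM, the cluster sum was higher in YS fluid in 4 of 5 conceptuses, with YS fluid to embryo ratios of 5.93, 1.21, 3.30, 0.58 and 1.54 in conceptuses 1 to 5. Conceptus 4 was the exception. With TMM over the 28 libraries the ratios were 2.77, 0.81, 1.23, 0.57 and 1.33, and the sum was higher in YS fluid in 3 of 5. Each of the 4 miR-302 members was higher in YS fluid in 4 of 5 conceptuses by CPM and in 3 of 5 with TMM, and by CPM the ratio of eca-miR-302d ran from 0.647 to 6.73. eca-miR-367 was higher in YS fluid in 1 of the 4 conceptuses with an embryonic read. In conceptus 1, which has no ratio, it had 0 reads in the embryo and 1 in YS fluid. The cluster ratio of conceptus 1 rested on embryo 1, with its high share of predicted miRNAs. When CPM was taken of the known miRNAs only, the ratio of conceptus 1 became 4.01 and those of the others 1.22, 3.17, 0.56 and 1.51.

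**Figure D4:**
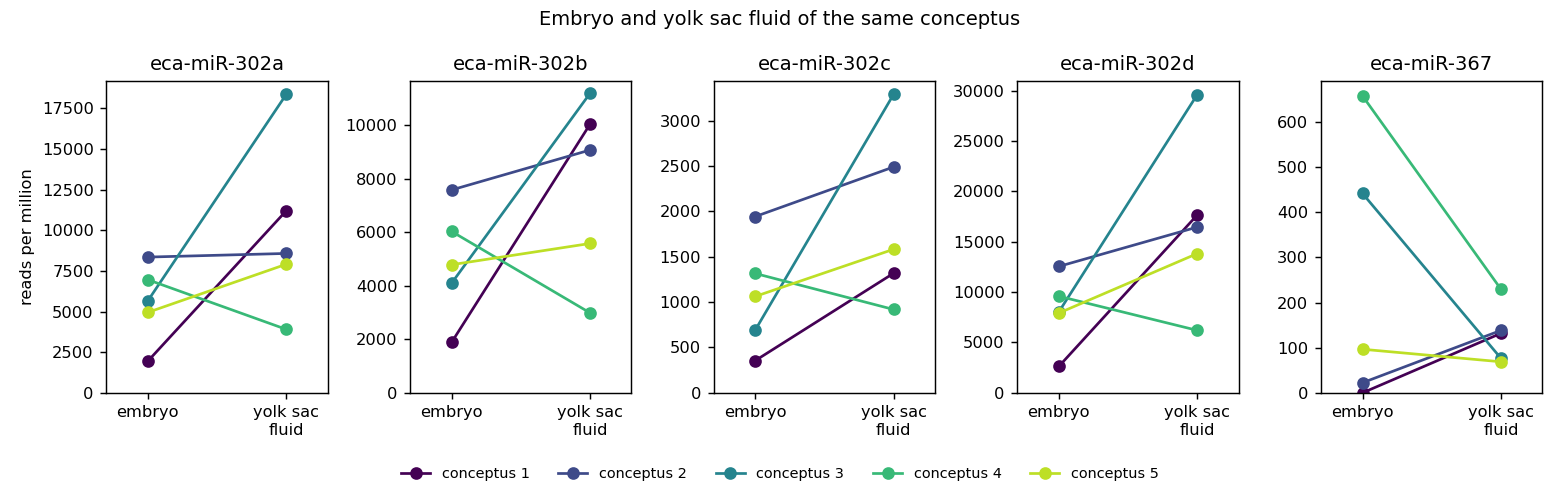
CPM of each member in the embryo and the YS fluid of the same conceptus, with 1 line per conceptus and an axis from 0 in each panel. For the miR-302 members, by CPM, 4 of 5 lines run upward from embryo to YS fluid and that of conceptus 4 runs downward, and for eca-miR-367 the lines run both ways.

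Tested across all 259 miRNAs, 0 of the 5 members were called between embryo and YS fluid, 0 had an unadjusted p under 0.05 and DESeq2 called 0, while 22.0% of the miRNAs tested were called higher in the embryo and 13.1% lower. The fitted log2 fold change of embryo over YS fluid was −0.44 ± 0.51 (SE) for eca-miR-302d, with a 95% interval of −1.55 to 0.67 (FDR = 0.525, edgeR). It was −0.23 (−1.36 to 0.90) for eca-miR-302a, −0.05 (−1.15 to 1.06) for eca-miR-302b and −0.25 (−1.64 to 1.13) for eca-miR-302c. For eca-miR-367 it was 1.62 (−0.64 to 3.88). The intervals thus allowed differences of more than 2-fold in either direction for eca-miR-302b and eca-miR-302c. With library totals in place of TMM the values of eca-miR-302a, b, c and d were −0.84, −0.68, −0.85 and −1.04, none of them called. That change of scaling moved the median of all miRNAs tested from 0.28 to −0.32 and the calls from 57 higher and 34 lower in the embryo to 40 and 55. Without conceptus 3 the 4 miR-302 values turned positive, to between 0.03 and 0.31, and without conceptus 1 that of eca-miR-302b was 0.12.

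The YS fluid of conceptus 4, the lowest in the cluster, also stood apart in other miRNAs. The let-7 family, which is abundant in differentiated tissue, summed to 115579 CPM there and to 11553 to 33883 CPM in the other YS fluids. Its smooth muscle and stroma list summed to 6893 CPM against 623 to 1978 CPM, with miR-145 and miR-199b-5p at 0 in every YS fluid. Its blood list summed to 1379 CPM against 230 to 553 CPM, and miR-142-3p, miR-142-5p, miR-144, miR-223 and miR-486-3p were at 0 in every YS fluid. The blood sums rested on few reads, since 1 read was worth 230 CPM in YS fluid 4 and 68.8 to 132 CPM in the other YS fluids. YS fluid 4 was also the shallowest library. The part of these in its cluster level was not tested. Without conceptus 4 the fitted difference of eca-miR-302d was −0.61 (FDR = 0.483, edgeR).

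On the maternal side, pregnancy was compared with the cyclic state within mares. No member passed the filter between pregnant and cyclic UF, between pregnant and cyclic endometrium, or between pregnant UF and pregnant endometrium, and no library had more than 2 reads of any 1 member. No test was therefore made. Pregnant UF had 2 cluster reads of 569244 and cyclic UF 5 of 657570, and their Poisson intervals overlapped. A difference within these intervals, whose upper ends were 12.7 and 17.7 CPM, was not detectable at this depth.

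miRNAs related to miR-302 by seed, many of them likewise known from stem cells or from proliferating cells, were counted as a list set by name and not by sequence. The list held miR-371, miR-372 and the miR-17, miR-20, miR-93 and miR-106 group, together with 3 miR-514 entries, 12 entries in the table of which 11 had a read. The list is impure: miR-371-5p is the other arm of its hairpin, and it and the miR-514 entries do not carry a miR-302-like seed. Between embryo and pregnant endometrium 8 of 9 tested were called higher and 0 lower, with a median log2 fold change of 3.73 compared with −1.02 over all miRNAs tested. Of all miRNAs tested there, 28.7% were called higher and 42.6% lower. In pregnant endometrium miR-372, miR-371-3p and miR-371-5p had 0, 0 and 1 reads. The embryos alone carried them past the filter, so their calls are no support for a difference. The abundant members in the embryo were miR-372 at 10182 ± 6565 CPM, miR-371-5p at 7850 ± 8348, miR-93 at 7746 ± 2192 and miR-20a at 6654 ± 1381 CPM (SD, n = 5 each). eca-miR-372 had 0 reads in pregnant endometrium and pregnant UF, as eca-miR-302b did. miR-93 and miR-20a were present in pregnant endometrium, at 1548 and 465 CPM, and were called higher by 1.02 ± 0.28 (FDR = 0.00667, edgeR) and 2.54 ± 0.28 (FDR = 9.2e-06, edgeR) on the log2 scale. The value of miR-93 was under 2-fold in 5 of the alternatives, such as 0.71 without embryo 1 and 0.82 without embryo 5.

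The same list had 7 of 9 higher and 0 lower between embryo and pregnant UF, with a median of 2.37 compared with −0.23. Of all miRNAs tested there, 29.7% were called higher and 38.7% lower. Against each maternal group named here, the conceptus libraries alone carried miR-372 and miR-371-5p past the filter. Between embryo and pregnant UF the same held for miR-371-3p, with 7 embryonic reads and 0 in pregnant UF. The calls of these miRNAs are no support for a difference. In YS fluid 7 of 8 were called higher than in pregnant endometrium and 1, miR-106b, lower by −1.71 (medians 4.04 and −0.84), and 6 of 8 higher than in pregnant UF with 0 lower (medians 3.23 and −0.54). Of all miRNAs tested, 17.9% were called higher and 35.2% lower against endometrium, and 23.5% higher and 35.7% lower against UF. The call of miR-106b depended on the scaling: its mean was 416 CPM in YS fluid and 369 CPM in pregnant endometrium, its fitted value was 0.28 with library totals, and the call was lost in 7 of 15 alternatives. Between embryo and YS fluid 1 of 9 was called higher, miR-106b at 2.08 ± 0.64 (FDR = 0.0300, edgeR), and 1 lower, miR-20b at −1.99 ± 0.40 (FDR = 0.00412, edgeR). Of all miRNAs tested there, 22.0% were called higher and 13.1% lower. That call of miR-106b was lost in 6 of 15 alternatives, among them library totals (1.53, FDR = 0.0527, edgeR) and leaving out conceptus 1, 4 or 5 (highest FDR = 0.102, edgeR), and library totals called 0 higher and 3 lower. The call of miR-20b held in 15 of 15. eca-miR-20b thus differed between the conceptus samples, with 2958 ± 773 CPM in embryos and 18472 ± 6507 CPM in YS fluids (SD, n = 5 each).

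The list with the seed of miR-367 did not move as one. The shares called over all miRNAs tested are those given above for each comparison. Its 5 miRNAs were all tested between embryo and pregnant endometrium, where miR-363 was called higher by 5.51 ± 0.79 (FDR = 8.33e-05, edgeR) and miR-92b lower by −4.06 ± 0.57 (FDR = 7.07e-05, edgeR) on the log2 scale. The median was 0.29 compared with −1.02 over all miRNAs tested. Against pregnant UF 1 was called higher and 1 lower in the embryo, or 3 higher and 1 lower with library totals. Against YS fluid 0 of 4 were called higher in the embryo and 2 lower, miR-92a by −2.86 ± 0.27 (FDR = 4.82e-05, edgeR) and miR-92b by −3.06 ± 0.82 (FDR = 0.0164, edgeR). The call of miR-92b was lost without conceptus 2 (−1.77, FDR = 0.0642, edgeR) and with the replicate block (−2.47, FDR = 0.0545, edgeR). miR-92a was far more abundant than its seed relative in the cluster, with 19912 ± 6725 CPM in embryos and 225616 ± 54558 CPM in YS fluids (SD, n = 5 each). In YS fluid 2 of 5 were called higher than in pregnant endometrium, miR-363 and miR-92a. miR-32 was called lower, but it had 0 reads in YS fluid and a level of 18.8 CPM in pregnant endometrium that would give about 1 read there, and DESeq2 and the other scalings did not call it. Against pregnant UF 2 of 5 were called higher in YS fluid and 2 lower, or 3 higher and 1 lower with library totals. Among the lower was again miR-32 (−3.48, FDR = 0.0363, edgeR), with 0 reads in YS fluid and 16.3 CPM in pregnant UF. That level was below the 68.8 CPM that 1 read was worth in the deepest YS fluid.

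eca-miR-363, which belongs to another cluster but shares the seed of eca-miR-367, had 2, 23, 40, 35 and 16 reads in embryos 1 to 5. Embryos 3 and 4 had the most reads and embryo 1 the fewest for both miRNAs. In YS fluids 1 to 5 eca-miR-363 had 4, 16, 21, 3 and 14 reads. It also had a few reads on the maternal side, 9 in pregnant endometrium and 4 in pregnant UF, where eca-miR-367 had none.

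The let-7 family showed the opposite distribution. The 7 miRNAs of this list, miR-98 included, were called lower in 7 of 7 cases against pregnant endometrium and against pregnant UF, in embryos as in YS fluids, under each of the scalings tried. Of all miRNAs tested against these 2 groups, 42.6% and 38.7% were called lower in embryos, and 35.2% and 35.7% in YS fluid. The median log2 fold change of the let-7 list in embryos was −6.40 against pregnant endometrium and −6.58 against pregnant UF, and that in YS fluid −5.11 and −5.05. let-7a, the most abundant, had 5434 ± 2880 CPM in embryos, 21039 ± 19378 CPM in YS fluids and 189681 ± 30183 CPM in pregnant endometrium (SD, n = 5 each). let-7c had 3301 ± 1350 CPM and let-7f 1575 ± 683 CPM in embryos, against 120423 and 40566 CPM in pregnant endometrium. Between embryo and YS fluid 0 of 7 were called, with a median of −1.22 compared with 0.28 over all miRNAs tested, of which 22.0% were called higher and 13.1% lower. There DESeq2 called 1 lower in the embryo and library totals 4, and 3 of the 7 (let-7a, let-7c and let-7d) had an unadjusted p under 0.05 in edgeR's test.

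**Figure D5:**
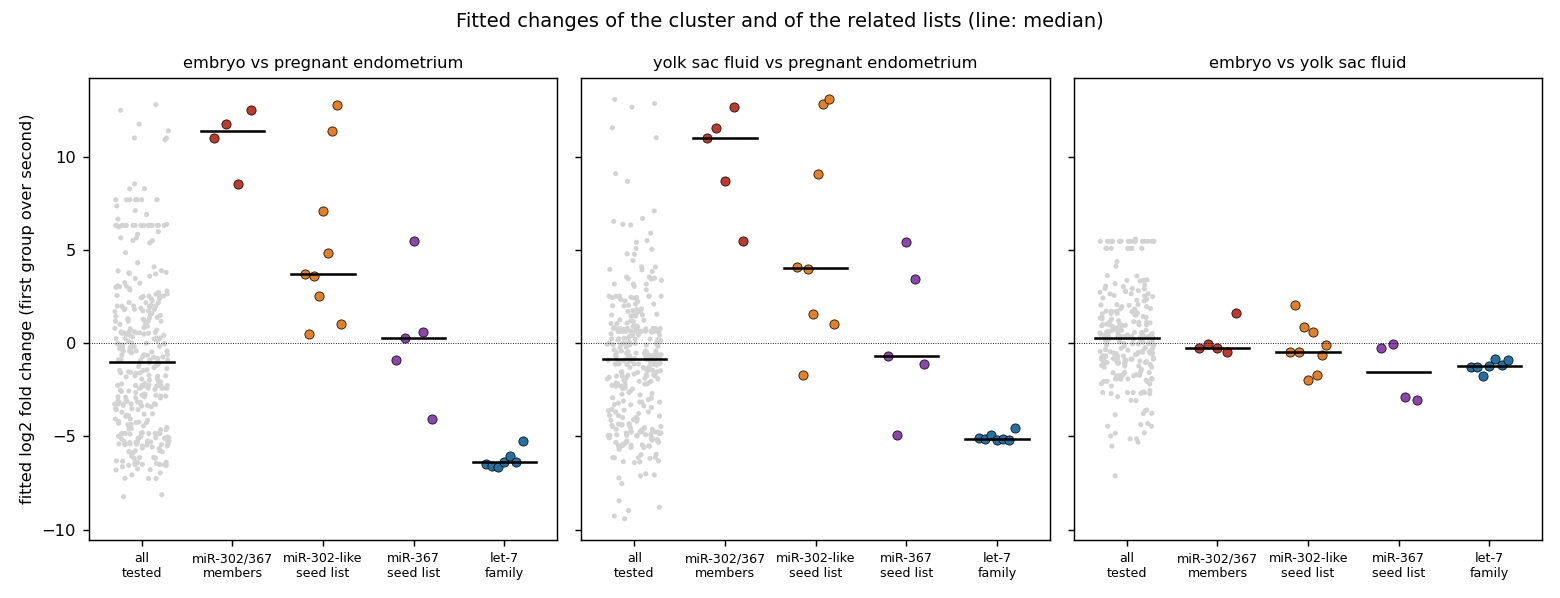
Fitted log2 fold changes from edgeR for the embryo over pregnant endometrium, the YS fluid over pregnant endometrium and the embryo over YS fluid; each point is a tested miRNA, lines are medians, and the first column of each panel holds all miRNAs tested. In the 2 panels against endometrium the members and the median of the miR-302-like list lie above the median of all miRNAs tested and the let-7 family below it, with miR-106b at −1.71 in YS fluid, while the members' median between embryo and YS fluid is −0.23.

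The known miRNAs whose pattern was most like that of the cluster were found by Pearson's r between log2 CPM, scaled by TMM over the 28 libraries, and the log2 CPM of the cluster sum. They were miR-20b (r = 0.976), miR-122 (0.972), miR-372 (0.969), miR-499-5p (0.951) and miR-363 (0.951). The libraries fell into a conceptus and a maternal cluster, so these values describe chiefly the step between them. Over the 10 conceptus libraries alone r was 0.725 for miR-122, 0.684 for miR-499-5p, 0.662 for miR-363, 0.204 for miR-20b and 0.0915 for miR-372, again as a description, since each conceptus gave 2 of these libraries. eca-miR-122, best known from liver, had 2332 ± 1341 CPM in embryos and 7200 ± 4466 CPM in YS fluids (SD, n = 5 each), compared with 17.2 ± 7.94 CPM in pregnant endometrium. eca-miR-372 differed from the cluster in YS fluid 2, where it reached 84400 CPM while the other YS fluids had 2271 to 8272 CPM. There miR-371-5p, of the same hairpin group, had 142857 CPM against 3647 to 14017 CPM, and the cluster itself, at 36735 CPM, was within the range of the other YS fluids.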

How the data were processed

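Small RNA was sequenced on a MiSeq from a kit started with equal RNA input. RNA was extracted with different kits from fluids and from tissues. Per the study's methods, the authors trimmed adapters with cutadapt 1.11 (also in the submitters' processing notes), counted reads per mature miRNA with miRPro against miRBase and EquCab2.0, and deposited the raw counts of known and of predicted miRNAs, which were used as deposited and joined per library. Groups and replicate numbers came from the labels, and the replicate number was read as that of the mare.

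CPM was taken of each library's known plus predicted counts. Groups were compared in edgeR 4.0.16 (R 4.3.3; TMM, glmQLFit and glmQLFTest, only the 2 groups in the fit; the mare as a block between pregnant and cyclic samples) over miRNAs with at least 1 CPM in as many libraries as the smaller group holds. A call needed FDR no higher than 0.05 and a change of 2-fold or more. A member without a fit was tested by exact permutation of CPM where a library had over 3 reads. DESeq2 1.42.0, other scalings, filters and depths, a replicate block and leaving out each mare were tried. The scripts were tested on simulated data. All members are named, with 2 to 4 of each list by mean CPM in the embryo and the 5 known miRNAs most like the cluster. Other named miRNAs (such as miR-106b, miR-92b and miR-32) and the values of YS fluid 4 were chosen after the values were seen. The members and lists were chosen with earlier results of these data known.

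Samples with the same number were taken to come from the same mare. The methods describe pairing within mares, and the titles and column names give the number. The deviations of same-numbered samples from their group means correlated at −0.0970 to 0.0973 on average between different materials, and at 0.235 and 0.165 between pregnant and cyclic UF and endometrium.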

Additional observations from a re-analysis of the deposited data

Results flagged for a closer look

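Of 22 groups of 4 or 5 libraries examined for an outlying library, 1 had one by Dixon's ratio, where chance gives about 1 in 20. The share of eca-miR-367 in the cluster reads of YS fluid was highest in conceptus 4, at 1.61%, far from the other YS fluids for a group of 5 libraries (0.122% to 0.377%). It rested on 1 of 62 cluster reads, with a 95% exact interval of 0.0408% to 8.66%.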

How the results depend on the processing

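Every member that was tested in an alternative had the same call as in the results above. In embryos eca-miR-367 was tested and called in 3 alternatives (no low-count filter, 28 libraries in 1 fit, without embryo 1), which gave 5 calls in place of 4, while its exact permutation p was 0.143 in 4 of the 5 runs without 1 conceptus. Against pregnant endometrium and UF, the fitted log2 fold changes ranged from 7.67 to 13.7 for the 4 miR-302 members in embryos. In YS fluid they ranged from 4.20 to 14.6 for the 5 members, and the highest FDR was 0.0208 (edgeR or DESeq2). The fits of eca-miR-367 in embryos are not part of these ranges. A minimum count of 10 and thinning of the libraries left eca-miR-367 untested. The replicate block, with the mare as a term, changed no member's call; for eca-miR-302d between embryo and YS fluid it gave −0.42. Between embryo and YS fluid 6 fitted values changed sign without a call. When 1 conceptus was left out at a time, the values ran from −0.49 to 0.27 for eca-miR-302a, −0.26 to 0.31 for eca-miR-302b, −0.48 to 0.26 for eca-miR-302c and −0.67 to 0.026 for eca-miR-302d. Without conceptus 3 they were 0.27 (eca-miR-302a), 0.31 (eca-miR-302b), 0.26 (eca-miR-302c) and 0.026 (eca-miR-302d), and that of eca-miR-302b was 0.12 without conceptus 1 and 0.012 in DESeq2. The cause was not tested. With TMM over the 28 libraries the mean cluster level in YS fluid was 12444 CPM in place of 36565, close to the 11424 CPM in embryos, because the scaling factors of the YS fluids were 1.66 to 4.29. The miR-302-like list had 7 to 9 calls higher in the embryo than in pregnant endometrium and in pregnant UF, the median of the miR-367 seed list ran from −0.51 to 1.53 between embryo and pregnant endometrium, and the let-7 list had 0 to 6 calls lower in the embryo than in YS fluid. Depth limits the YS fluid most, where 1 read was worth up to 230 CPM.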
